A study of Mus musculus with 6 samples.

Results

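The genes described are those of the Meis, Pbx and Pknox families of homeodomain proteins, which are partners of the Hox proteins on DNA. The members are Meis1, Meis2, Meis3, Pbx2, Pbx3, Pbx4, Pknox1 and Pknox2, 8 of the 19938 genes measured, and they were chosen by name. Each was read by the probe set that carries its symbol alone, 1 probe set for each of the 8. The VPA cultures were W4 mouse embryonic stem cells kept for 16 days under conditions that induce neural differentiation, with 300 uM sodium valproate (VPA) present throughout. Valproate is an antiepileptic drug and developmental neurotoxicant that inhibits histone deacetylases. The PBS cultures were the same cells differentiated in the same way for 16 days in the solvent, phosphate-buffered saline (PBS). There were 3 arrays per group, described in the design text as biological replicates, and all came from the single line W4.

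Meis, Pbx and Pknox proteins belong to the TALE class, named for a loop extension of 3 amino acids in the homeodomain. Pbx proteins bind DNA together with Hox proteins and sharpen the choice of site. Meis and Pknox (also called Prep) proteins bind Pbx proteins, help to hold them in the nucleus and join the complexes on DNA. In the developing nervous system these complexes pattern the hindbrain, where they act on Hox genes themselves, and Meis genes are known to respond to retinoic acid in embryos and in cultured cells.

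Meis1, Meis2 and Pknox1 were higher with VPA, by 1.87-fold, 1.36-fold and 1.34-fold, and Pbx2 was 1.18-fold lower. Meis3, Pbx3, Pbx4 and Pknox2 did not pass the test, and their measured changes were at most 1.09-fold. The threshold was a Benjamini-Hochberg adjusted p under 0.05 over all 19938 genes in limma. So 3 of 8 genes rose, where 13.6% of all genes did, and 1 of 8 fell, where 15.7% of all genes did. In either direction 4 of 8 passed, where 29.2% of all genes passed. The median change over the 8 genes was -0.04 on the log2 scale, beside 0.0013 over all genes. These counts describe genes chosen with results of these arrays known.

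The windows before the transcription starts of Meis1, Meis2 and Pbx2 are shown because Meis1 and Meis2 rose together while Pbx2 fell. No window was found for Pknox1, which also rose. RefSeq (GRCm38.p6) windows were found for 5 of the 8 genes, and those of Meis1, Meis2 and Pbx2 are printed as the 250 bases before the start, on the gene's own strand. Meis1 is at chr11:19018970-19019219 on the minus strand, Meis2 at chr2:116064620-116064869 on the minus strand, and Pbx2 at chr17:34592009-34592258 on the plus strand. Capitals mark matches on either strand to the CCAAT box, to the TATA box letters TATAAA and to the GC box letters GGGCGG.
Meis1: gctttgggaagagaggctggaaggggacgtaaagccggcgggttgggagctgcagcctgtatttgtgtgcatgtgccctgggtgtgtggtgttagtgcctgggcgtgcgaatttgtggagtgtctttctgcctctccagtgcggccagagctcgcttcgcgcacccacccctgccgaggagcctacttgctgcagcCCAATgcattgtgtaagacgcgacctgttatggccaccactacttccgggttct
Meis2: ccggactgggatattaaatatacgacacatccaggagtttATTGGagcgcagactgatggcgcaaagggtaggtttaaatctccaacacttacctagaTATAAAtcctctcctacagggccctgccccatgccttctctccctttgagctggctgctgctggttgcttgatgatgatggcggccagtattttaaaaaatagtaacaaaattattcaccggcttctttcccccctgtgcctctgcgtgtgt
Pbx2: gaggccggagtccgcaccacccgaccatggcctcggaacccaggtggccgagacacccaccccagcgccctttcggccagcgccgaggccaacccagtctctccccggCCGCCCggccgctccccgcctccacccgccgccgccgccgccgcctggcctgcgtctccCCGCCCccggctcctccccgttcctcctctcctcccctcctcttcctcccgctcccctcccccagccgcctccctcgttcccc
The Meis1 window had 1 CCAAT match, 54 to 50 bases before the start. The Meis2 window had 1 CCAAT match, 210 to 206 bases before the start, and 1 TATAAA match, 152 to 147 bases before it. Whether any of these matches acts as a promoter element was not tested. The Pbx2 window had 2 matches to GGGCGG, known as the GC box, and no match to the other letters. The Pbx4 window, of a gene that did not pass, had 2 CCAAT matches, so 3 of the 5 windows held CCAAT. Over 32851 windows of the same length, 33.8% held CCAAT, 12.4% TATAAA and 32.7% GGGCGG.

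The letters that the TALE proteins themselves bind were searched in the same windows, on both strands. These were TGACAG, a core bound by Meis and Pknox proteins, and TGATNNAT, a composite bound by Hox and Pbx proteins together. The nuclear receptor core AGGTCA, which retinoic acid receptors bind, was searched as well. None of these 3 motifs was in any of the 5 windows of Meis1, Meis2, Meis3, Pbx2 and Pbx4. The shares of all windows were 15.9% for TGACAG, 7.68% for TGATNNAT and 14.0% for AGGTCA. In base composition the 3 printed windows differed: 59.6% of bases were G or C before Meis1, 47.6% before Meis2 and 77.6% before Pbx2, against a median of 52.4% over all windows. The CpG dinucleotides numbered 13, 7 and 27 in that order, against a median of 6.

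Some measures of the whole experiment bear on the values that follow. The medians of the arrays ran from 6.99 to 7.03 (log2), and the values were deposited already normalized, so each change is relative to the other genes. Of the arrays, VPA replicate 1 stood apart: its median absolute difference over all genes was 0.12 from VPA replicate 2 and 0.13 from VPA replicate 3, while the other VPA pair differed by 0.07 and the PBS pairs by 0.06 to 0.07. All 15 neuron markers had group means above 6.155 in both groups; 6.155 is the 95th percentile of 1027 olfactory receptor genes, which are mostly silent outside the nose, and it serves as a gauge of background. Every Meis, Pbx and Pknox gene measured lay above that gauge in both groups. The RNA came from whole cultures, in which a change in the share of a cell type and a change of RNA per cell cannot be told apart.

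**Figure D1:**
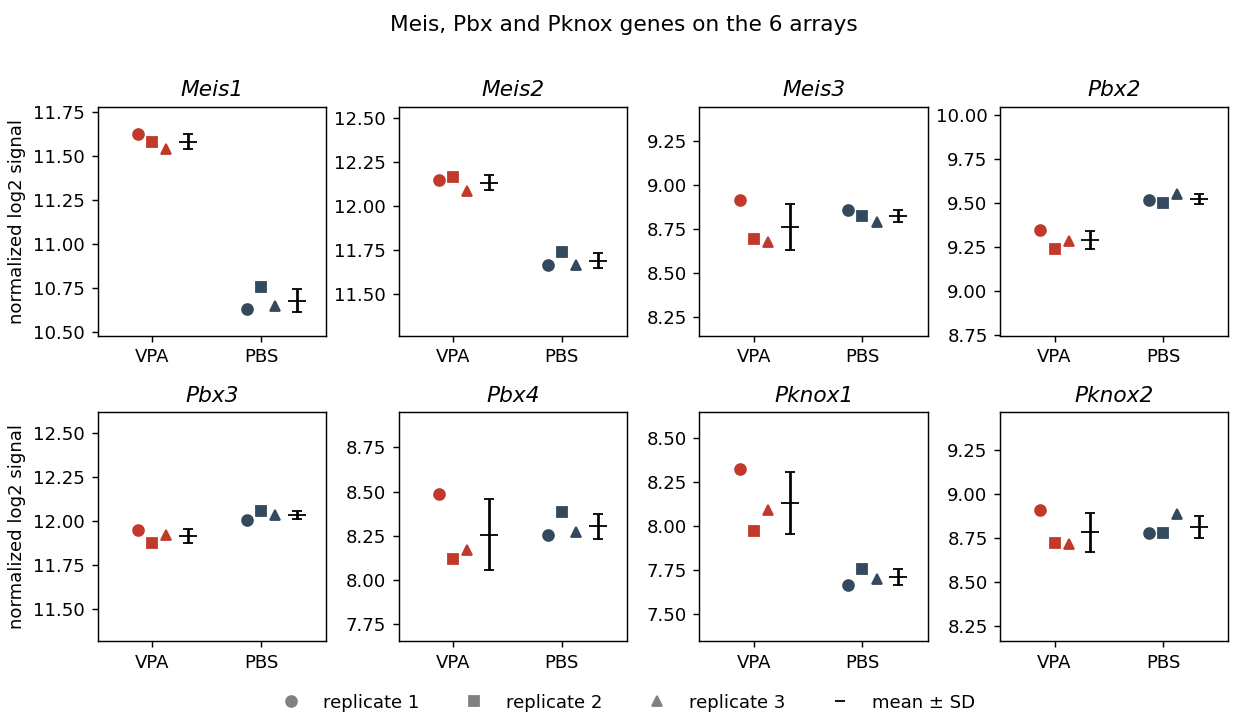
Normalized log2 signal of the 8 genes on each array, VPA arrays left (red) and PBS arrays right (dark), with the mean and SD (n = 3) beside each group. Every panel spans the same number of log2 units, so distances can be set against each other between panels while positions cannot; the groups are apart for Meis1, Meis2, Pbx2, Pbx3 and Pknox1 and overlap for Meis3, Pbx4 and Pknox2.

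Among the Meis genes, Meis1 had the largest measured change. Meis1 encodes a cofactor known for its roles in blood stem cells, heart and proximal limb. Its log2 signals were 11.63, 11.58 and 11.54 with VPA, against 10.63, 10.76 and 10.65 with PBS. All VPA arrays lay above all PBS arrays, and the lowest VPA value exceeded the highest PBS value by 0.78. The mean was 11.58 ± 0.04 with VPA and 10.68 ± 0.07 with PBS (SD, n = 3 each), a change of 0.90 (SE 0.06, 95% interval 0.77 to 1.04, limma adjusted p = 1.31e-05). This was rank 275 of 19938 among rises. With 1 array left out at a time the change stayed between 0.88 and 0.94.

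Meis2, which acts in neural crest, in striatal and olfactory bulb neurons and in the developing eye, also rose. Its signals were 12.15, 12.16 and 12.09 with VPA, against 11.67, 11.74 and 11.67 with PBS. The groups did not overlap, with a gap of 0.35 between them, and the arrays within each group lay close together. The mean was 12.13 ± 0.04 with VPA and 11.69 ± 0.04 with PBS (SD, n = 3 each), a change of 0.44 (SE 0.06, 95% interval 0.32 to 0.57, limma adjusted p = 0.000451). Both Meis1 and Meis2 passed the threshold under each of the 18 alternatives run for them.

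Meis3, a gene of hindbrain patterning in Xenopus embryos, did not pass. Its signals were 8.91, 8.69 and 8.67 with VPA, against 8.86, 8.82 and 8.79 with PBS. VPA replicate 1 was above all PBS arrays and the other VPA arrays were below them, so the groups overlapped. The change was -0.06 (SE 0.07, 95% interval -0.23 to 0.10, limma adjusted p = 0.572). Without VPA replicate 1 it was -0.14, with an adjusted p of 0.0558.

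Within each array, the Meis genes were set against each other by the difference of their log2 signals, which cancels any shift common to an array. Meis1 minus Meis2 was -0.55 ± 0.03 with VPA and -1.01 ± 0.03 with PBS (SD, n = 3 each), so the change of Meis1 exceeded that of Meis2 by 0.46. Meis1 minus Meis3 moved by 0.97 and Meis2 minus Meis3 by 0.51. The VPA arrays did not overlap the PBS arrays for any of these 3 differences. The exact two-sided permutation p was 0.1 for each, the smallest that 3 arrays against 3 allow, and 0.14 after adjustment over the 7 pairs compared within the families.

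Among the Pbx genes, Pbx2 was the member that passed. Pbx2 is expressed in most embryonic tissues. Its signals were 9.35, 9.24 and 9.28 with VPA, against 9.52, 9.50 and 9.55 with PBS. Every VPA array lay below every PBS array, with a gap of 0.155. The mean was 9.29 ± 0.05 with VPA and 9.52 ± 0.03 with PBS (SD, n = 3 each), a change of -0.23 (SE 0.06, 95% interval -0.36 to -0.11, limma adjusted p = 0.0134). The call was lost without VPA replicate 2 (adjusted p = 0.0514) and without PBS replicate 3 (adjusted p = 0.0625), with changes of -0.21 and -0.22.

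Pbx3, which is needed in mice for the hindbrain control of breathing, had non-overlapping groups but did not pass. The signals were 11.95, 11.88 and 11.92 with VPA, against 12.01, 12.06 and 12.04 with PBS. The VPA arrays were all lower, with a gap of 0.058. The change was -0.12 (SE 0.05, 95% interval -0.24 to 0.0025, limma adjusted p = 0.133). It passed with a trend of variance on signal (adjusted p = 0.0417) and with array weights (adjusted p = 0.0279).

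Pbx4, a gene known from the mouse testis, differed more among the VPA arrays than between the groups. Its signals were 8.48, 8.11 and 8.17 with VPA, against 8.25, 8.38 and 8.27 with PBS. VPA replicate 1 was the highest of the 6 arrays and the other VPA arrays were the lowest. The change was -0.05 (SE 0.10, 95% interval -0.27 to 0.17, limma adjusted p = 0.764), and without VPA replicate 1 it was -0.16 (adjusted p = 0.0575). Within arrays, Pbx2 minus Pbx3 was -2.63 ± 0.02 with VPA and -2.51 ± 0.04 with PBS (SD, n = 3 each), with no overlap (exact permutation p = 0.1). For Pbx2 minus Pbx4 and Pbx3 minus Pbx4 the groups overlapped, with differences of change of -0.19 (exact permutation p = 0.2) and -0.07 (exact permutation p = 0.6).

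The Pknox genes had unequal measured changes, with a rise of Pknox1. Pknox1, also called Prep1, encodes a widely expressed partner of Pbx proteins that mouse embryos need to develop. Its signals were 8.32, 7.98 and 8.09 with VPA, against 7.67, 7.76 and 7.70 with PBS. The groups did not overlap, although VPA replicate 1 lay well above the other VPA arrays. The mean was 8.13 ± 0.18 with VPA and 7.71 ± 0.04 with PBS (SD, n = 3 each), a change of 0.42 (SE 0.09, 95% interval 0.22 to 0.62, limma adjusted p = 0.00667). Without VPA replicate 1 the change was 0.32 (adjusted p = 0.00283), and the call was lost when variances were not moderated across genes (adjusted p = 0.0705).

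Pknox2, or Prep2, the second member of that family, did not pass. Its signals were 8.91, 8.72 and 8.72 with VPA, against 8.78, 8.78 and 8.89 with PBS. The groups overlapped, with VPA replicate 1 the highest of the 6 arrays. The change was -0.03 (SE 0.07, 95% interval -0.19 to 0.13, limma adjusted p = 0.781), and its sign turned under quantile normalization, where it was 0.02. Within arrays Pknox1 minus Pknox2 was -0.65 ± 0.08 with VPA and -1.11 ± 0.08 with PBS (SD, n = 3 each), a difference of 0.45 with no overlap (exact permutation p = 0.1, adjusted 0.14). Over all 8 genes, the groups did not overlap for 5, where 44.0% of all genes did not overlap.

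**Figure D2:**
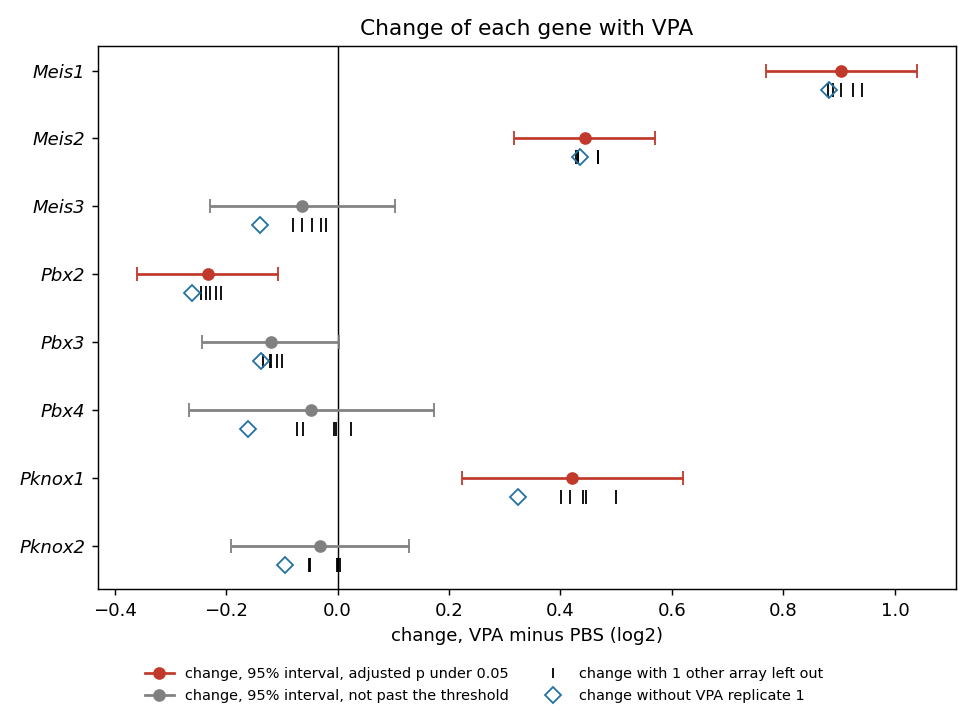
Change of each gene (VPA minus PBS, log2) with its 95% interval from limma, red where the adjusted p was under 0.05; diamonds below give the change without VPA replicate 1 and ticks the change with 1 of the other 5 arrays left out. Meis1 stands at 0.90 with every tick close to it, while the diamonds of Meis3, Pbx2, Pbx3, Pbx4, Pknox1 and Pknox2 lie lower than all their ticks.

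VPA replicate 1 read higher for each of these genes than the mean of the other VPA arrays. The offset was positive for 8 of 8 genes, from 0.02 for Meis2 to 0.34 for Pbx4, with a median of 0.14. Over all genes 44.3% had a positive offset and the median was -0.02. Such an offset was not particular to the cofactor genes. It was positive for 8 of 9 other TALE genes (median 0.14) and 11 of 14 retinoic acid genes (median 0.15). In Hox groups 1 to 4 it was positive for 10 of 11, and in groups 5 to 8 for 10 of 10. Positive offsets were fewer in Hox groups 9 to 13 (6 of 16), muscle markers (4 of 13) and forebrain markers (4 of 12). Endothelial markers had a positive offset in 7 of 10 cases (median 0.16) and neural crest markers in 5 of 9 (median 0.13). The counts were 9 of 17 for mesenchyme, 8 of 15 for neuron and 5 of 10 for pluripotency markers. VPA replicate 1 was the highest VPA array for 7 of the 8 genes, Meis2 being the exception, where 36.3% of all genes had their highest VPA value on that array. The offset was 0.29 for Pknox1, 0.23 for Meis3 and 0.19 for Pknox2, against 0.07 for Meis1. Without VPA replicate 1 the same numbers of genes passed, 3 higher and 1 lower, where 19.8% of all genes were higher and 21.2% lower in that fit.

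**Figure D3:**
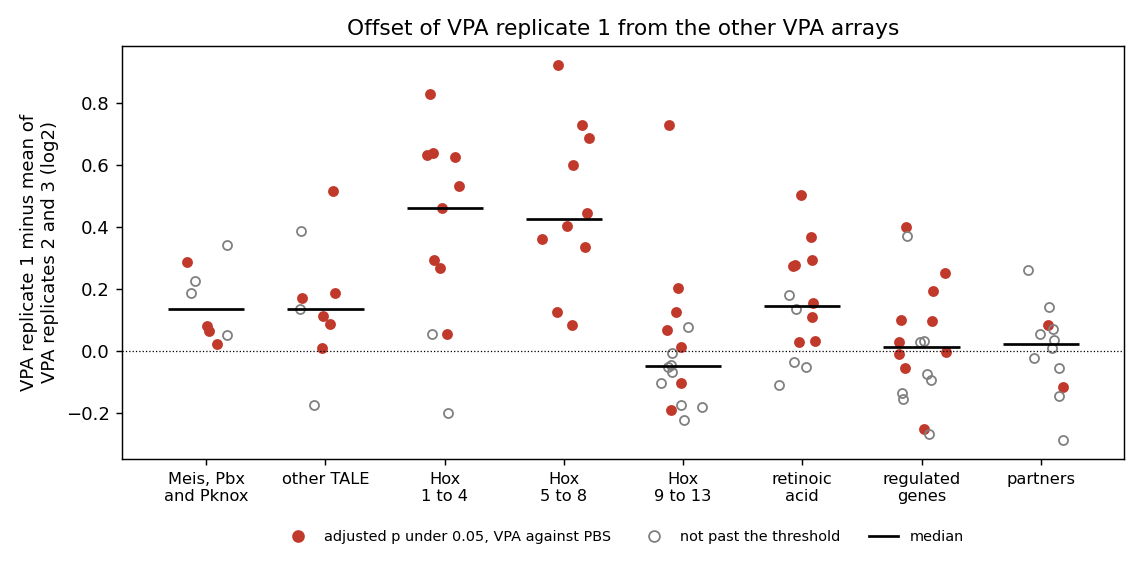
Signal on VPA replicate 1 minus the mean of VPA replicates 2 and 3 (log2) for each gene of the Meis, Pbx and Pknox families and of 7 related lists, red where VPA and PBS differed at an adjusted p under 0.05, with the list median as a bar. The offsets of the 8 cofactor genes all lie above 0, and those of Hox groups 1 to 4 and 5 to 8 have medians of 0.46 and 0.43.

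Many Hox genes, whose products these cofactors serve, rose between the same groups, where 13.6% of all genes rose and 15.7% fell. Of 11 measured Hox genes of paralogue groups 1 to 4, which mark the hindbrain, 9 rose and 0 fell, with a median change of 1.19, and of 10 in groups 5 to 8 all 10 rose, with a median of 1.32. PBS means lay below the background gauge for 4 of the 11 and 5 of the 10, so the sizes of those changes are not defined. In groups 9 to 13, the most posterior, 7 of 16 rose and 0 fell, with a median of 0.20. Of these 16 genes 13 had a PBS mean below the gauge, and 8 had both group means below it. The largest rises were those of Hoxb3 at 2.59 (SE 0.17), Hoxb4 at 2.13 (SE 0.13), Hoxb2 at 2.01 (SE 0.18) and Hoxa2 at 1.70 (SE 0.09) in groups 1 to 4. In groups 5 to 8 the largest was that of Hoxc6 at 2.26 (SE 0.18). It averaged 6.05 with PBS, below the gauge, where the true size of a change is not defined. In groups 9 to 13 it was that of Hoxb9 at 1.72 (SE 0.19).

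Several Hox genes have enhancers with known Hox, Pbx and Meis or Pknox sites, among them Hoxb1, Hoxb2, Hoxa2, Hoxa3 and Hoxb4 in mice. Hoxb1, whose own product acts with Pbx on its enhancer in the hindbrain, had means of 7.22 ± 0.12 with VPA and 7.18 ± 0.02 with PBS (SD, n = 3 each). Its change was 0.04 (SE 0.07, limma adjusted p = 0.724), and its groups overlapped. Hoxb2, a target of Hoxb1 in the hindbrain, had means of 9.57 ± 0.38 with VPA and 7.56 ± 0.23 with PBS (SD, n = 3 each). Its groups were apart by 1.50.

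Among the other measured genes of the TALE class there were both rises and falls. Of 9 genes, 2 rose and 4 fell, with a median change of -0.28, where 13.6% of all genes rose and 15.7% fell. Those that fell were Iroquois genes, which encode regulators of neural and heart patterning: Irx4 changed by -0.92 (SE 0.08), Irx1 by -0.75 (SE 0.07), Irx2 by -0.59 (SE 0.06) and Irx5 by -0.40 (SE 0.13). The fall of Irx5 was close to the threshold (limma adjusted p = 0.0468). Its signals were 9.41, 8.87 and 8.91 with VPA, against 9.52, 9.44 and 9.41 with PBS, with a gap of 0.006 between the groups. Its call was lost when any 1 array other than VPA replicate 1 was left out (adjusted p 0.0964 to 0.148), without moderation and with all probe sets. Tgif1, which encodes a repressor that limits TGF-beta and retinoid signalling, rose by 0.57 (SE 0.06, limma adjusted p = 0.000191), and Mkx, a tendon regulator, by 0.36 (SE 0.10, limma adjusted p = 0.0200), with a PBS mean of 6.14, just below the gauge. The call of Mkx was lost without VPA replicate 2, PBS replicate 1 or PBS replicate 2 (adjusted p 0.0669 to 0.0874). Irx5 and Mkx fall outside the rule for naming genes and were added after their values were seen. Tgif1 signals were 9.45, 9.40 and 9.33 with VPA, against 8.84, 8.75 and 8.87 with PBS, with a gap of 0.46 between the groups.

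**Figure D4:**
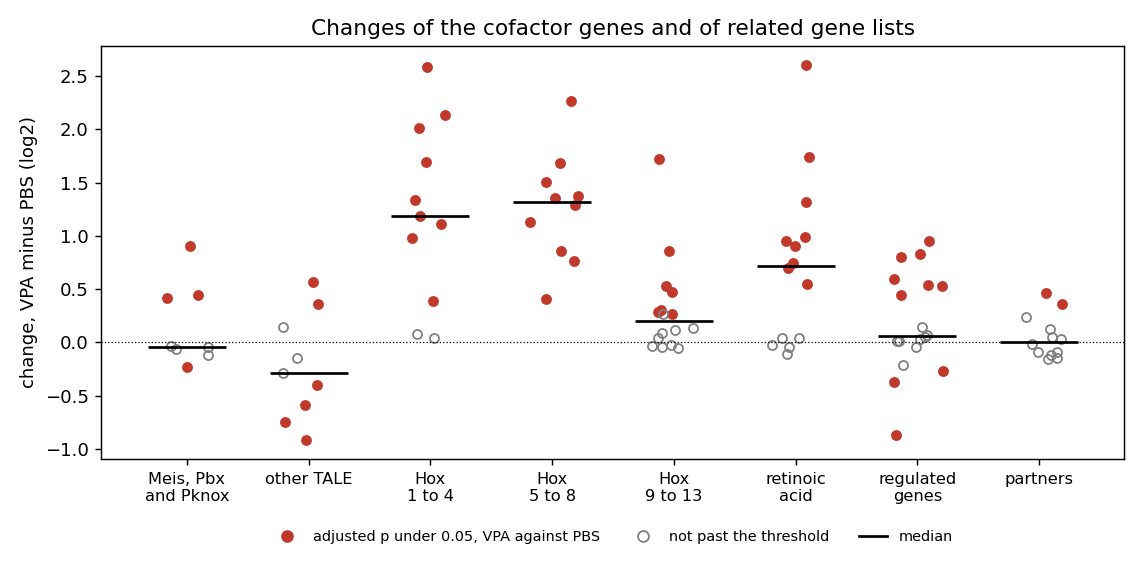
Change of each measured gene (VPA minus PBS, log2) in the Meis, Pbx and Pknox families and in 7 related lists, red where the adjusted p was under 0.05, with the list median as a bar. The cofactor genes span -0.23 to 0.90, the Hox genes of groups 1 to 8 reach 2.59, and the other TALE genes have a median of -0.28.

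Retinoic acid genes, among them carriers, enzymes and receptors of the signal to which Meis genes are known to respond, rose in 9 of 14 cases. With 0 lower, their median change was 0.72, where 13.6% of all genes rose and 15.7% fell. Crabp2 and Crabp1, which encode cellular retinoic acid carriers, rose by 2.61 (SE 0.08) and 1.74 (SE 0.07). Stra6, the receptor for the plasma retinol carrier, rose by 1.32 (SE 0.10) and Cyp26b1, an enzyme that breaks retinoic acid down, by 0.99 (SE 0.10). The synthesis gene Aldh1a2 and the receptor gene Rara, named after their values were seen, also rose, with changes of 0.95 (SE 0.10) for Aldh1a2 and 0.90 (SE 0.13) for Rara. Aldh1a2 averaged 5.21 with PBS, below the gauge. The 5 genes that did not pass, also named after their values were seen, included the breakdown genes Cyp26a1 (-0.04) and Cyp26c1 (-0.11). The others were Aldh1a1 (0.04), Rdh10 (-0.02) and Dhrs3 (0.04). Cyp26a1 and Aldh1a1 had both group means below the gauge. Whether the changes of these genes are linked to those of Meis1 and Meis2 was not tested.

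A list of genes other than Hox genes whose regulation by Meis, Pbx or Pknox proteins has been described in some tissue gave a mixed picture. Of 18 measured genes 7 rose and 3 fell, with a median change of 0.06, where 13.6% of all genes rose and 15.7% fell. Gcg, the glucagon gene, rose by 0.95 (SE 0.08), Fgf10, a growth factor gene of limb and lung buds, by 0.83 (SE 0.11) and Th, which encodes the enzyme that limits dopamine synthesis, by 0.80 (SE 0.12). Wnt3, a Wnt ligand gene, changed by -0.87 (SE 0.08). The PBS mean of Fgf10, 5.80, was below the gauge. Among 12 genes whose products bind, modify or turn over these cofactors, 2 rose and 0 fell, with a median of 0.01. The count of rises was near the share of 13.6% over all genes. The 2 that rose were Myh9, a non-muscle myosin gene, at 0.46 (SE 0.06), and Hdac1, a histone deacetylase gene, at 0.36 (SE 0.06). The rise of Myh9 did not pass with the mean of its probe sets (0.16, adjusted p = 0.232).

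Markers of several cell types moved between the same groups, and their part in the changes of the cofactor genes was not tested. The shares over all genes, to be set beside each count, were 13.6% higher and 15.7% lower. Of 17 mesenchyme and matrix markers 16 rose and 0 fell (median change 1.47), with a mean level of the list of 9.47 to 9.57 over the VPA arrays, against 7.996 to 8.18 over the PBS arrays. Of 13 muscle markers 9 rose and 0 fell (median 0.58), at 7.29 to 7.60 with VPA, against 6.42 to 6.47 with PBS. Of 10 endothelial markers 9 rose and 0 fell (median 0.54), at 6.71 to 6.89 with VPA, against 6.11 to 6.19 with PBS. PBS means lay below the background gauge for 1 mesenchyme, 5 muscle and 6 endothelial markers. Of 9 neural crest markers 6 rose and 2 fell (median 0.69), at 8.57 to 8.69 with VPA, against 8.16 to 8.24 with PBS. Of 15 neuron markers 2 rose and 11 fell (median -0.27), at 10.56 to 10.61 with VPA, against 10.68 to 10.76 with PBS; without PBS replicate 2, 7 fell. Of 12 forebrain markers 0 rose and 8 fell (median -0.68), at 6.87 to 7.003 with VPA, against 7.56 to 7.70 with PBS. Of 10 pluripotency markers 2 rose and 0 fell (median 0.09), and 7 of the 10 had both group means below the gauge.

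The genes whose pattern over the 6 arrays was most like that of each cofactor gene that passed were found by the root mean square difference of log2 signals, after each gene was centred on its own mean. The comparison ran over 18612 genes with a proper name. For Meis1 they were Prkcd (0.03), a protein kinase C gene, Peak1 (0.04) and Tmem132c (0.05), with changes of 0.87, 0.90 and 0.95. Nearest to Meis2 were Tcf12 (0.02), a bHLH transcription factor gene, Arap3 (0.03) and the matrix protease gene Adamts12 (0.03), with changes of 0.45, 0.40 and 0.46. Pbx2 lay nearest to Pfdn6 (0.01), a prefoldin gene, S100a1 (0.02) and Churc1 (0.02), with changes of -0.22, -0.22 and -0.22. For Pknox1 the nearest were Bcan (0.01), which encodes the brain matrix protein brevican, Rbm43 (0.03) and Il33 (0.03), with changes of 0.42, 0.39 and 0.42; both group means of Il33 lay below the gauge. Bcan shared with Pknox1 the higher value on VPA replicate 1, with a difference from Pknox1 of 0.01 over the 6 arrays. The points share the same 6 arrays and fall into 2 groups, so these distances are a description of likeness on these arrays.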

How the data were processed

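RNA from 6 cultures was measured on Affymetrix whole transcript arrays, 3 with VPA and 3 with PBS. The authors deposited normalized log2 signals per probe set; base 2 was inferred from their range, 2.50 to 13.89. How background, summarization and normalization were handled is not given in the sources used here. The tools and builds named per the submitters' processing notes are Partek 6.5 and mm9, whose roles are not stated. Depth does not apply to arrays, and their number limits the precision.

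Of 35556 probe sets, 21789 had exactly 1 gene symbol in GEO's platform annotation, 1621 several and 12146 none. Symbols were updated by Entrez ID through a RefSeq table (GRCm38.p6), which matched 21698. The brightest probe set by mean over the 6 arrays stood for each of 19938 genes. VPA was compared with PBS with limma 3.58.1 in R 4.3.3 (lmFit, eBayes, no covariates), with Benjamini-Hochberg adjustment over all genes, after tests on simulated data. The same replicate numbers occur in both groups, but deviations from the group means correlated by -0.02 to 0.02, so the numbers were not taken as pairs. No batch or scan date was used.

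The members and lists were chosen with earlier results of these data known. Genes named were the members, Hoxb1, in each related list genes among the 4 largest changes past the threshold, and the 3 nearest genes by pattern for each member that passed. The text marks the few others, picked with their values in view. Alternatives were quantile normalization, median centring, filters on dim genes, other variance models, array weights, the replicate block, the mean of probe sets, all probe sets, a stricter threshold and leaving out each array.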

Additional observations from a re-analysis of the deposited data

How the results depend on the processing

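Of the alternatives, only quantile normalization, median centring, array weights and leaving out an array could move the change of a member. The others refit the same values, as each member had 1 probe set. The change ran from 0.88 to 0.95 for Meis1, 0.43 to 0.47 for Meis2 and 0.32 to 0.50 for Pknox1. Meis3, Pbx2 and Pbx3 kept their sign as well. Meis1 and Meis2 kept their calls under all 18 alternatives. The call of Pknox1 was lost with unmoderated variances (0.42, adjusted p = 0.0705). Pbx3 passed with a variance trend (-0.12) and with array weights (-0.14), which gave 2 members lower under each. Pknox2 reversed under quantile normalization (0.0162). The cause was not tested for these. With 1 array left out, the members lower numbered 0 to 1 and the members higher stayed at 3; the changes ran from -0.26 to -0.21 for Pbx2, from -0.16 to 0.0241 for Pbx4, from -0.10 to 0.0041 for Pknox2 and from -0.0082 to 0.11 for Hoxb1, and the difference of change of Pbx3 minus Pbx4 from -0.12 to 0.0236. The sign of Pbx4 turned without VPA replicate 2 and that of Pknox2 without VPA replicate 3 or PBS replicate 3.

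Over all genes, 2702 were higher and 3123 lower. The genes higher numbered 1520 with the filter at the 50th percentile, 1631 without moderation, 4342 with array weights and 1579 at an adjusted p under 0.01, where 1791 were lower. Leaving out 1 array gave 1778 to 3949 higher and 2058 to 4224 lower, the lowest without PBS replicate 2 and the highest without VPA replicate 1. The numbers did not pair the arrays; with the replicate block 2592 genes were higher and 2818 lower, 3 members were higher and 1 lower, and 1 number of 3 had arrays that correlated best with each other.

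With the filter at the 50th percentile, which leaves fewer list genes tested, the genes higher numbered 1 of the other TALE list, 3, 1 and 1 of Hox groups 1 to 4, 5 to 8 and 9 to 13, 3 of the regulated genes, 0 endothelial, 3 muscle, 3 neural crest and 0 pluripotency, and 4 forebrain genes were lower. Without moderation 1 other TALE gene and 4 Hox genes of groups 9 to 13 were higher and 1 mesenchyme gene lower. With the mean of probe sets 1 partner gene was higher, and with array weights 1 was lower. The pluripotency count was 1 with the filters at the 30th percentile and at the gauge. With 1 array left out, the counts were 1 to 3 other TALE genes higher and 3 to 5 lower (Irx5 lost in 5 of 6 such fits), 0 to 1 partner genes lower, 7 to 11 neuron genes lower (7 without PBS replicate 2) and 1 to 2 pluripotency genes higher. Over 57 named list genes, with 992 alternative values, 17 calls were lost (7 of Irx5, 4 of Mkx, Hoxd10 and L1cam with unmoderated variances, Myh9 with the mean of probe sets, and Klf4 without any 1 of the PBS arrays) and 1 sign turned, that of Hoxb1.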

Other observations

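Meis1 and Meis2 had smaller SDs among the VPA arrays than most Hox genes that rose with them, and the third cofactor gene that rose, Pknox1, did not stand apart in this way. The VPA SD was 0.04 for Meis1, 0.04 for Meis2 and 0.18 for Pknox1 (n = 3), while the VPA SDs of the 26 Hox genes that rose ran from 0.07 to 0.54 with a median of 0.23, all 26 above that of Meis1. The PBS SD was 0.07 for Meis1, 0.04 for Meis2 and 0.04 for Pknox1, beside a median of 0.11 over the same Hox genes. By that median the Hox genes were more spread without VPA as well. Their PBS SDs ran from 0.04 for Hoxb4 to 0.28 for Hoxc8, however, and several lay below that of Meis1. Small VPA SDs were not particular to cofactor genes that rose: they were 0.04 for Pbx3 and 0.05 for Pbx2. For Meis3, Pbx4 and Pknox2 they were 0.13, 0.20 and 0.11. Meis1 and Meis2 were also brighter, with VPA means of 11.58 and 12.13. Among the Hox genes that rose the highest VPA mean was 10.49, that of Hoxb3. The part of signal level in these spreads was not tested. Over all genes the median SD was 0.09 with VPA and 0.06 with PBS. For those Hox genes VPA replicate 1 was the highest VPA array in 21 of 26 cases and lay a median of 0.38 above the mean of VPA replicates 2 and 3, beside a median change of 1.16. Of the 26, 12 had PBS means below the background gauge of 6.155, and the median change over the other 14 was 1.21. The offset of that array was 0.07 for Meis1, beside a change of 0.90, and 0.02 for Meis2, beside a change of 0.44. Pknox1 had an offset of 0.29, beside a change of 0.42. The Hox genes were counted after the test that chose them, so these spreads are a description.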
